A study of Mus musculus with 7 samples.

Results

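Subplate neurons were followed here through 9 marker genes, Ccn2, Nr4a2, Cplx3, Tmem163, Moxd1, Nxph4, Lpar1, Inpp4b and Trh, out of 16144 genes measured in mouse whole neocortex. The genes were taken from a list of known subplate markers that leaves out Kcnab1, and each was read from its single probe set, the group of array features that reports one transcript. All 9 passed the filter on dim signal. The samples were 4 CKO and 3 WT extracts of C57BL/6 whole neocortex, 1 array each. CKO has a genotype that names COUP-TFI and Nex-Cre, and WT is labelled wild type. Whether WT carried a floxed allele or Cre, how many animals went into an extract, and the age of the tissue, are not stated in the sources used here. Nex-Cre recombines in postmitotic glutamatergic neurons, so glia, interneurons and progenitors are not its main targets. Arrays are named by group and label number: CKO 1, CKO 4, CKO 34 and CKO 43 against WT 6, WT 27 and WT 38. Nothing states that the arrays stand for separate animals, so every p-value reflects the spread among these 7 extracts, part of which may be technical.

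The subplate is a thin band of early-born neurons beneath the cortical plate. Its neurons pioneer corticofugal axons and receive thalamic axons before these enter the cortex, and many die after birth, while survivors form layer 6b. COUP-TFI, the product of Nr2f1, is a nuclear receptor that gives sensory cortex its areal identity. The comparison of CKO with WT asks which transcripts depend on it in postmitotic neurons, and the 9 markers were read beside Kcnab1, a potassium channel subunit that is also a subplate gene and was lower in CKO. In whole tissue, fewer subplate cells and less RNA per cell cannot be told apart.

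Genes of cortical glutamatergic neurons were bright on all arrays, and genes of the striatum beneath the cortex were also present. The glutamatergic neuron genes Emx1 (10.49 in CKO and 10.42 in WT, mean log2 signals), Neurod2 (13.13 and 13.13) and Tbr1 (12.77 and 12.63) were all well above the filter at 6.84, and 6 of 8 such markers could be tested. With limma 0 of the 6 passed, 3 differences were positive and 3 negative, and 3 had an unadjusted p under 0.05 (6.79% of all genes did). Those were Tbr1 and Bcl11b (0.15, SE 0.040), higher on every CKO array, and Neurod6 (-0.20, SE 0.057), the gene whose locus carries Nex-Cre, which was lower on every CKO array. Of 9 striatal genes tested 0 passed with limma, but 8 differences were positive (9504 of all 16144 genes were), with a median of 0.24. Of the 9, 5 had an unadjusted p under 0.05, all higher in CKO (4.17% of all genes were). Ebf1, a transcription factor of striatal neurons, differed by 0.79 (SE 0.207, limma adjusted p 0.694). Averaged per array as deviations from each gene's mean, the striatal genes ran from -0.10 to 0.36 in CKO and from -0.33 to -0.10 in WT, with CKO 4 level with WT 38. Their part in the values of the markers was not tested. Nr2f1 was at 10.60 to 10.79 in CKO and 10.88 to 11.16 in WT, a difference of -0.36 (SE 0.074) with a limma adjusted p of 0.435. Its probe set may or may not lie in the deleted part, so it does not settle the labels. Array lot was inferred from the digits of the array identifiers and is not stated as such. It was taken as 1 for CKO 1 and CKO 4, and as 3 for WT 6 alone. CKO 34, CKO 43, WT 27 and WT 38 were taken as lot 2. Whether the lots also mark samples that were processed together is not known.

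Because the receptor targeted in CKO binds DNA at copies of AGGTCA, the 250 bases before the start of each marker were searched for that half-site on both strands. RefSeq windows (GRCm38.p6) were matched for 7 of the 9 genes, with 9 windows in all since Lpar1 has 3. Only the windows of Trh and Cplx3 held a half-site, 1 each, and they are printed here, 5′ to 3′ on the gene's strand, with the half-site in capitals. The Trh window lies at chr6:92244651-92244900, minus strand, and the Cplx3 window at chr9:57606282-57606531, minus strand.
Trh: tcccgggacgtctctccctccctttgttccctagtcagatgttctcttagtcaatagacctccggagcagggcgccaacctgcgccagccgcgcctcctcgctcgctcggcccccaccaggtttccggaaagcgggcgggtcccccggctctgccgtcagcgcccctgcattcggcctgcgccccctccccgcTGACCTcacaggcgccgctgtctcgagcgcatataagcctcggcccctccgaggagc
Cplx3: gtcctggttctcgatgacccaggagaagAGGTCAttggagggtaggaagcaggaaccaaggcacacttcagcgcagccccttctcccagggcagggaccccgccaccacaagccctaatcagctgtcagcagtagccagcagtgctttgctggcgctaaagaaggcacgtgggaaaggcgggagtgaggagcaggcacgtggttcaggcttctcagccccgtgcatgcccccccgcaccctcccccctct
The Trh half-site, read there as TGACCT, begins 57 bases before the start, in a stretch known as background for thyroid hormone's control of this gene. In Cplx3 it begins 222 bases before the start. Of all 32851 promoter windows of that length, 14.0% held the half-site on either strand, beside 2 of the 9 here. The direct repeat AGGTCANAGGTCA, searched on both strands, was in 0 of the 9 windows and in 0.033% of all. A match describes letters, not binding.

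None of the subplate markers passed the test, and as a group they leaned neither way. With limma and adjustment over all 16144 genes, 0 of 9 passed an adjusted p of 0.05, against 0.0248% of all genes (4 of them, 2 higher and 2 lower). The differences, CKO minus WT on the log2 scale, ran from -0.33 to 0.40, and 5 were positive and 4 negative. Over all genes tested, 9504 were positive and 6640 negative. The markers' median was 0.03, beside 0.01 over all genes tested. At an unadjusted p under 0.05 there were 2 of the 9, Nxph4 (higher) and Nr4a2 (lower), where 6.79% of all genes were that far. The smallest adjusted p among the markers was 0.711.

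**Figure D1:**
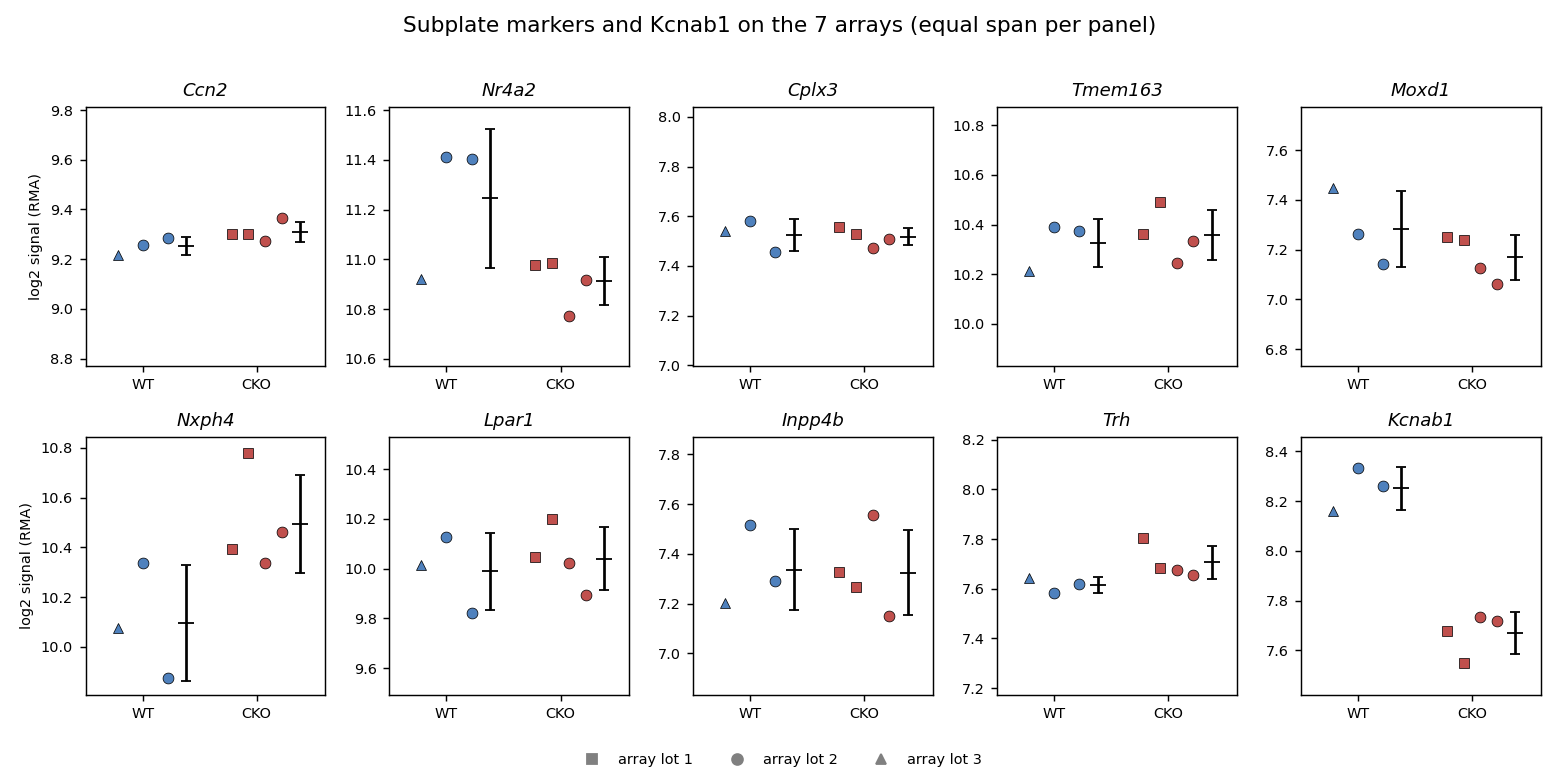
Log2 RMA signal of the 9 subplate markers and Kcnab1 on each array, with equal vertical span in every panel; points are arrays (shape gives the array lot) and the bar beside each group is its mean ± SD (n = 3 WT, n = 4 CKO). Kcnab1 parts the groups widely (7.55 to 7.73 against 8.16 to 8.33), Trh by a narrow margin, and the other 8 panels overlap.

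Nr4a2 encodes Nurr1, an orphan nuclear receptor known for specifying midbrain dopamine neurons and one of the most used markers of subplate and layer 6b. Its probe set (10482772) gave log2 signals of 10.98, 10.99, 10.77 and 10.92 on CKO 1, 4, 34 and 43, and of 10.92, 11.41 and 11.40 on WT 6, 27 and 38. WT 27 and WT 38 were far above every CKO array, while WT 6 lay among the CKO arrays. Mean signals were 10.91 ± 0.098 (SD, n = 4) for CKO and 11.25 ± 0.279 (SD, n = 3) for WT. They differed by -0.33 (SE 0.119, 95% interval -0.60 to -0.06), or 0.794 of the WT signal, with a limma adjusted p of 0.722. This was the largest negative difference among the 9, and its size depended on which WT arrays were counted. Without WT 6 it was -0.49 (limma adjusted p 0.245), and within lot 2 it was -0.56 (adjusted p 0.902 within the lot, 0.267 with lot as a fixed block). Without WT 27 or WT 38 it was -0.25 in each case. Since WT 6 is the 1 array of its lot, the lot and that sample cannot be told apart.

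Nr4a2 has a pair of close relatives that bind the same DNA element, Nr4a1 and Nr4a3, which are also induced by neuronal activity. Nr4a1 lay between 8.81 and 8.92 in CKO and between 8.69 and 8.87 in WT, a difference of 0.10 (SE 0.051, limma adjusted p 0.727). Nr4a3 lay between 11.02 and 11.26 in CKO and between 11.15 and 11.25 in WT, a difference of -0.06 (SE 0.059, limma adjusted p 0.826). Neither showed WT 27 and WT 38 set off from WT 6 as Nr4a2 did. Of 10 activity-induced genes, among them Fos, Arc and Egr1, 0 passed with limma and 0 had an unadjusted p under 0.05. Averaged per array as deviations from each gene's mean, those 10 lay between -0.05 and 0.05 in CKO and between -0.04 and 0.02 in WT. Nr4a2 also marks the claustrum; 4 of 6 claustral genes were tested, with 0 passing in limma (0 at an unadjusted p under 0.05) and a median of 0.04.

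Nxph4 encodes a neurexophilin, a secreted glycoprotein that binds neurexins at the presynaptic membrane, and is enriched in the subplate. Its probe set (10373218) gave 10.39, 10.78, 10.34 and 10.46 on CKO 1, 4, 34 and 43 and 10.08, 10.34 and 9.87 on WT 6, 27 and 38. CKO 4 stood highest and WT 38 lowest, and WT 27 (10.339) exceeded the lowest CKO array, CKO 34 (10.338), by a hair. The means were 10.49 ± 0.197 (SD, n = 4) and 10.10 ± 0.233 (SD, n = 3). The difference of 0.40 (SE 0.130, 95% interval 0.10 to 0.69), a 1.32-fold higher signal in CKO, was the largest of the 9, with a limma adjusted p of 0.711. It was positive under every alternative run, from 0.28 without WT 38 to 0.52 without WT 27, and 0.29 within lot 2. Its span over the 7 arrays, 0.90, was also the widest.

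Of the other neurexophilins, 2 had differences opposite in sign to that of Nxph4, and none passed. Nxph3, which is likewise known from subplate-derived layer 6b neurons, gave 9.20, 9.23, 9.02 and 9.16 on CKO 1, 4, 34 and 43 and 9.42, 9.60 and 9.32 on WT 6, 27 and 38. Every CKO array was below every WT array, and the difference was -0.29 (SE 0.075, limma adjusted p 0.683). Nxph2 also showed no overlap, with 7.54 to 7.68 in CKO and 7.75 to 7.88 in WT, a difference of -0.18 (SE 0.050, limma adjusted p 0.711). Nxph1, an interneuron gene, overlapped widely (9.34 to 9.59 against 9.34 to 9.51), with a difference of 0.02 (SE 0.068) that turned negative within lot 2 (-0.11). Groups that do not overlap with CKO lower were found for 2.99% of all genes. Of the neurexins these proteins bind, Nrxn2 (0.02, SE 0.081) and Nrxn3 (0.08, SE 0.142) were tested, and neither passed.

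**Figure D2:**
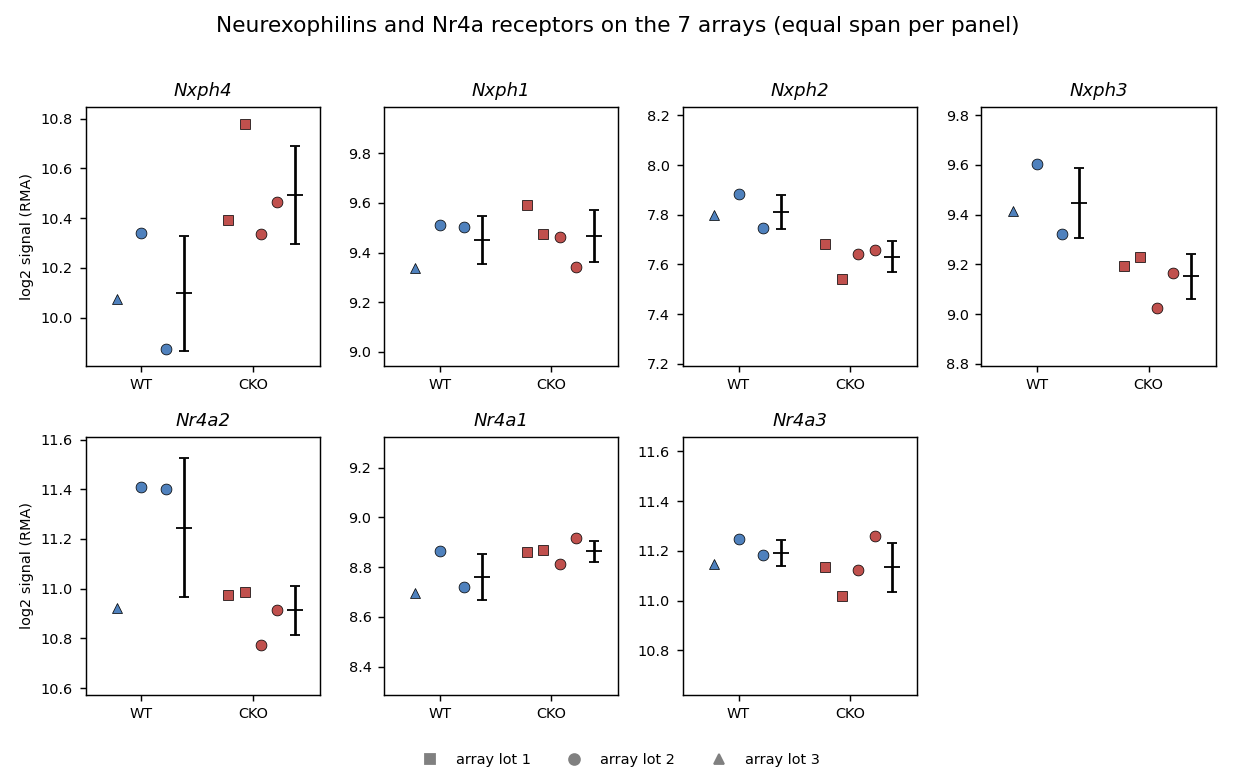
Log2 RMA signal of the 4 neurexophilin genes and the 3 Nr4a receptor genes on each array, with equal vertical span per panel; shapes give the array lot and bars the mean ± SD (n = 3 WT, n = 4 CKO). Nxph2 and Nxph3 are lower on all 4 CKO arrays while Nxph4 is mostly higher, and WT 6 lies among the CKO arrays for Nr4a2, apart from WT 27 and WT 38.

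Ccn2 and Trh are the other secreted products. Ccn2 encodes connective tissue growth factor, a matrix-associated protein and a standard label of layer 6b. It was the steadiest of the bright markers, at 9.30, 9.30, 9.27 and 9.37 on CKO 1, 4, 34 and 43 and 9.22, 9.26 and 9.29 on WT 6, 27 and 38 (probe set 10362201). CKO 34 lay below WT 38, so the groups overlapped. The difference was 0.06 (SE 0.040, 95% interval -0.03 to 0.15, limma adjusted p 0.758), and the lower end of the interval is 0.976 of the WT signal. Ccn2 is also made by vessel and fibroblast cells. Of 10 endothelial and mural genes 0 passed with limma (0 at an unadjusted p under 0.05), and their mean deviation ran from -0.03 to 0.10 in CKO and from -0.06 to 0.01 in WT. Of 7 meningeal and fibroblast genes tested, 0 passed with limma and 4 had an unadjusted p under 0.05, all higher in CKO, against 4.17% of all genes. That list ran from -0.01 to 0.22 in CKO and from -0.17 to -0.09 in WT without overlap. Its part in the value of Ccn2 was not tested.

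Trh encodes the precursor of thyrotropin-releasing hormone, a neuropeptide best known from the hypothalamus. It was the 1 marker of the 9 whose groups did not overlap, at 7.80, 7.69, 7.68 and 7.66 on CKO 1, 4, 34 and 43 and 7.64, 7.58 and 7.62 on WT 6, 27 and 38 (probe set 10546417). CKO 43 lay just above WT 6. Groups that do not overlap with CKO higher made up 5.39% of all genes. The difference was 0.09 (SE 0.046, 95% interval -0.02 to 0.20, limma adjusted p 0.730), and it shrank to 0.06 without CKO 1. Of 8 hypothalamic and thalamic genes, all tested, 0 passed with limma (0 at an unadjusted p under 0.05), with a median of 0.06, and their groups overlapped when averaged. Among genes that act with Trh, the receptor gene Trhr2 was at 8.24 to 8.31 in CKO and 7.96 to 8.19 in WT, a difference of 0.18 (SE 0.058, limma adjusted p 0.711). Pcsk1, a convertase that cuts peptide precursors, was at 7.35 to 7.58 in CKO and 7.61 to 7.87 in WT, a difference of -0.21 (SE 0.081, limma adjusted p 0.723).

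Lpar1 is a receptor of lysophosphatidic acid, a lipid signal that acts on progenitors, oligodendrocytes and subplate neurons. Its log2 signals were 10.05, 10.20, 10.02 and 9.89 on CKO 1, 4, 34 and 43 and 10.02, 10.13 and 9.82 on WT 6, 27 and 38 (probe set 10513256). The WT arrays spanned nearly the whole CKO range. The difference was 0.05 (SE 0.088, 95% interval -0.15 to 0.25, limma adjusted p 0.896) and it was -0.02 in lot 2 and -0.03 without WT 38, so it has no settled sign. Oligodendrocyte genes, which share cells with Lpar1, numbered 9 tested, of which 0 passed with limma (0 at an unadjusted p under 0.05). Their mean deviation ran from -0.03 to 0.17 in CKO, with CKO 1 highest, and from -0.11 to -0.01 in WT. Olig2, a transcription factor of that lineage, had a mean of 8.97 in CKO and 8.69 in WT, with CKO 1 highest at 9.33. The receptors Lpar2, Lpar3, Lpar4 and Lpar6 differed by 0.01, 0.10, 0.09 and 0.20, and none passed with limma.

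Inpp4b, Tmem163, Cplx3 and Moxd1 act inside the cell or at its membranes. Tmem163, a zinc transporter of synaptic vesicles, was at 10.36, 10.49, 10.24 and 10.33 on CKO 1, 4, 34 and 43 and at 10.21, 10.39 and 10.37 on WT 6, 27 and 38 (probe set 10357371). The difference was 0.03 (SE 0.068, 95% interval -0.12 to 0.19, limma adjusted p 0.919), and it was -0.09 within lot 2. Both groups spread over the same range. Cplx3 is a complexin, which binds the SNARE complex and tunes vesicle release. It was at 7.56, 7.53, 7.47 and 7.51 on CKO 1, 4, 34 and 43 and at 7.54, 7.58 and 7.46 on WT 6, 27 and 38 (probe set 10593947). The difference was -0.01 (SE 0.044, 95% interval -0.11 to 0.09, limma adjusted p 0.976), with all CKO arrays inside the WT range. Its relative Cplx1, found across cortical neurons, was at 10.76 to 10.93 in CKO and 10.58 to 10.78 in WT, a difference of 0.18 (SE 0.061, limma adjusted p 0.711).

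Inpp4b is a phosphoinositide phosphatase that restrains PI3K signalling. It was at 7.33, 7.27, 7.55 and 7.15 on CKO 1, 4, 34 and 43 and at 7.20, 7.52 and 7.29 on WT 6, 27 and 38 (probe set 10573082). CKO 34 and WT 27 were high and CKO 43 and WT 6 low, so each genotype spread alike. The difference was -0.01 (SE 0.104, 95% interval -0.25 to 0.23, limma adjusted p 0.985). Moxd1 encodes a monooxygenase related to dopamine beta-hydroxylase. It was at 7.25, 7.24, 7.13 and 7.06 on CKO 1, 4, 34 and 43 and at 7.45, 7.26 and 7.14 on WT 6, 27 and 38 (probe set 10362186). WT 6 and, by a narrow margin, WT 27 stood above all CKO arrays, and WT 38 lay among them. The difference was -0.11 (SE 0.078, 95% interval -0.29 to 0.07, limma adjusted p 0.757). Without WT 6 it was -0.03, and without WT 38 it was -0.19 (limma unadjusted p 0.043, adjusted p 0.448).

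Signal strength limits what the dim markers can show. Probe sets of olfactory receptors, which neocortex is not known to use, numbered 1023, and 95% of them had a mean log2 signal below 7.57. Means of Cplx3, Moxd1 and Inpp4b were at or under that value, and 6 of the 9 markers were above it. Probe sets differ in how brightly they report, so this does not show that the 3 transcripts are missing, but a fall in them could be hidden in background. The median difference of the 6 brighter markers was 0.05. Trh, with means of 7.71 in CKO and 7.62 in WT, was only just above the olfactory receptor value. Kcnab1 itself, with a mean of 7.92, was not far above it. Its mean was 7.67 in CKO and 8.25 in WT, and CKO 4, at 7.55, lay below the olfactory receptor value. How far background limits its difference was not tested.

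Over all 7 arrays, Kcnab1 differed from the markers in size and in how cleanly it parted the groups. Within lot 2 it did not stand apart from Nr4a2. There Kcnab1 differed by -0.57 (limma adjusted p 0.607) and Nr4a2 by -0.56, each with both CKO arrays below both WT arrays. Kcnab1 was at 7.68, 7.55, 7.73 and 7.72 on CKO 1, 4, 34 and 43 and at 8.16, 8.33 and 8.26 on WT 6, 27 and 38. The gap between the groups was wide, and the difference was -0.58 (SE 0.060, 95% interval -0.72 to -0.44, limma adjusted p 0.0345), or 0.668 of WT. That value lay outside the 95% interval of 8 of the 9 markers, and inside that of Nr4a2. Over all genes 99.2% of intervals leave it out, so this count is no property of the markers. Kcnab1 was singled out for its result, and the difference between it and each marker was not tested. Its call was lost when any 1 array was left out (limma adjusted p 0.0874 to 0.273), with array weights (0.106) and with lot as a fixed block (0.267), while its difference stayed between -0.63 and -0.54 in all of these.

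**Figure D3:**
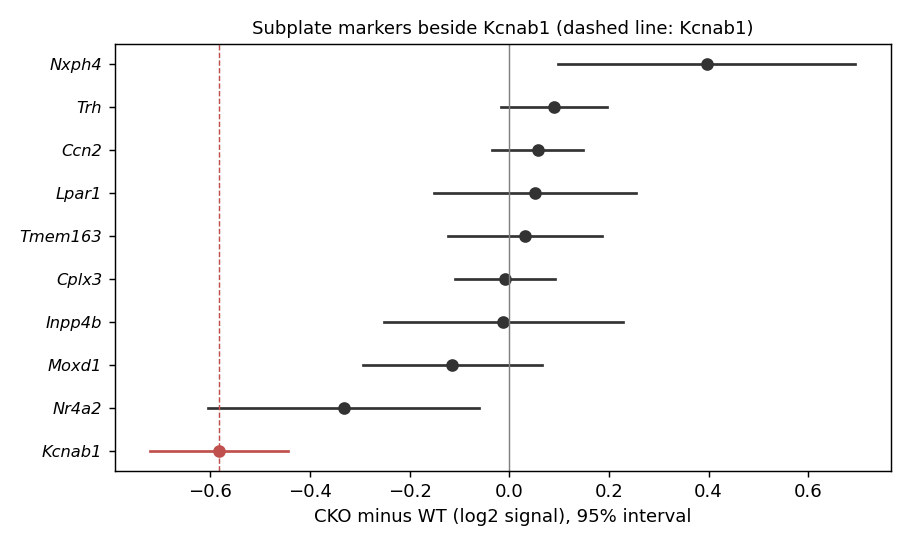
Difference between CKO and WT in log2 signal, with limma's 95% interval, for the 9 subplate markers and Kcnab1 (red; dashed line at its value of -0.58). The interval of Nr4a2 (-0.60 to -0.06) alone among the markers reaches the dashed line, and 7 of the 9 include 0.

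No array was high or low for the markers as a set in a way that followed genotype. Averaged over the 9 as deviations from each gene's mean, CKO 4 (0.08) and WT 27 (0.08) were highest, and WT 38 (-0.06), WT 6 (-0.05) and CKO 43 (-0.05) were lowest. CKO 1, CKO 4 and WT 27 each had 7 of the 9 markers above their own mean, and CKO 43 and WT 6 had 2. CKO 4 was the highest array for 3 markers, Nxph4, Lpar1 and Tmem163, and WT 38 the lowest for 3, Nxph4, Lpar1 and Cplx3. Across arrays, then, samples of both genotypes stood at each end.

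A longer list of 20 genes reported in the subplate, many of which other deep-layer neurons also use, had more negative than positive differences. Of the 20, all tested, 1 passed with limma, Kcnab1, and 12 were on the negative side, as were 6640 of all 16144 genes. The median was -0.05. At an unadjusted p under 0.05 there were 5 lower, against 2.61% of all genes, and 1 higher, against 4.17%. The list was written with the results for Kcnab1 and Sox5 known, so its direction is no independent evidence. Serpini1, which encodes the axonal protease inhibitor neuroserpin, was at 10.67 to 10.78 in CKO and 10.87 to 11.00 in WT, a difference of -0.20 (SE 0.048, limma adjusted p 0.655). Sv2b, a synaptic vesicle glycoprotein, was at 9.79 to 10.01 against 10.04 to 10.19, a difference of -0.22 (SE 0.060, limma adjusted p 0.711). Sox5, which controls the order in which deep-layer neuron types are made, was at 11.76 to 11.91 against 11.94 to 12.02, a difference of -0.14 (SE 0.049, limma adjusted p 0.711). For these 3 genes and Kcnab1 every CKO array was below every WT array, or 4 of 20 where the share over all genes is 2.99%.

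Pde1a, a calcium-dependent phosphodiesterase of deep cortical neurons, had the largest difference after Kcnab1, at -0.32 (SE 0.092, limma adjusted p 0.711). Its WT 38 array (8.72) lay below CKO 1 (8.76), so the groups overlapped. Tbr1, which specifies subplate and layer 6 neurons, went the other way, at 12.74 to 12.83 in CKO and 12.50 to 12.72 in WT, a difference of 0.14 (SE 0.057, limma adjusted p 0.726). WT 6 was the lowest array for it, and within lot 2 the difference was 0.06. The other 14 genes of the list had 95% intervals that include 0. Averaged without Kcnab1, the 19 genes lay between -0.07 and 0.01 in CKO and between -0.01 and 0.05 in WT, and the groups overlapped.

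**Figure D4:**
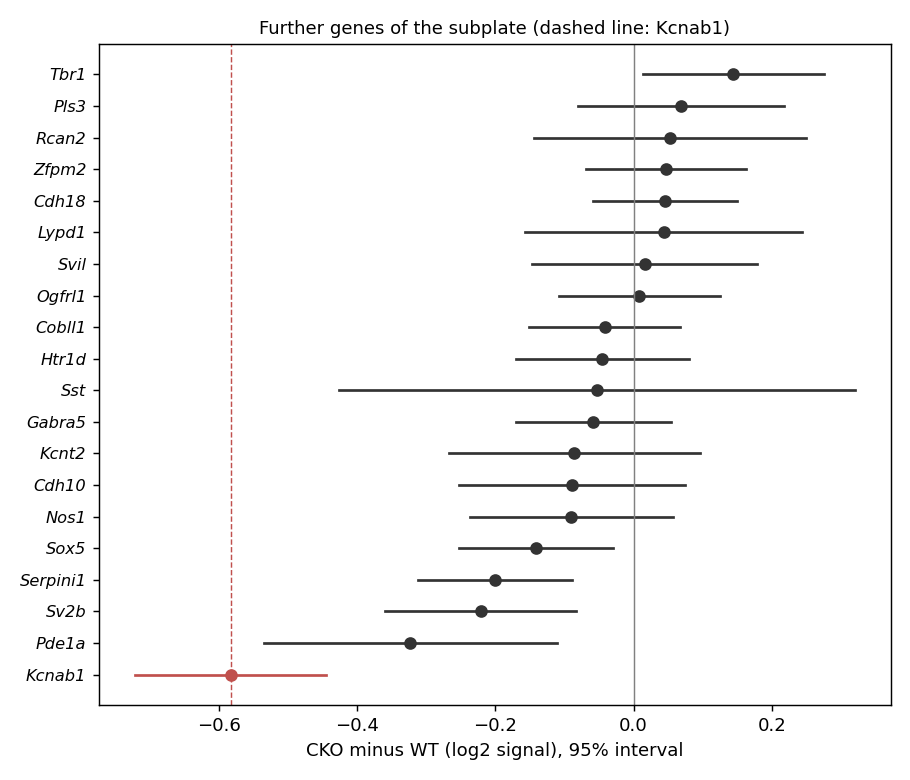
Difference between CKO and WT in log2 signal, with limma's 95% interval, for 20 further genes reported in the subplate, ordered by size (dashed line at Kcnab1, red). Kcnab1 stands apart at -0.58; the next lowest is Pde1a at -0.32, and Tbr1 is highest at 0.14.

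Among markers of the layer 6 corticothalamic neurons that lie over the subplate, 1 of 10 tested passed with limma, Syt6, a synaptotagmin, which rose by 0.67 (SE 0.041, adjusted p 0.00220; 0.158 with lot as a fixed block). Including Syt6, 2 were higher (4.17% of all genes) and 2 lower (2.61%) at an unadjusted p under 0.05. Ntsr1, a neurotensin receptor, was at 9.99 to 10.26 in CKO and 10.35 to 10.80 in WT, a difference of -0.47 (SE 0.114, limma adjusted p 0.655). The list's median was -0.02, and its mean deviation per array ran from -0.07 to 0.05 in CKO and from -0.05 to 0.06 in WT. The 7 Cajal-Retzius genes, which mark the other early-born population of the cortex, had a median of -0.02, and 0 passed with limma (0 at an unadjusted p under 0.05).

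Genes that belong to the markers' families or act with them numbered 38, of which 30 were tested. With limma 0 passed, and 2 were higher (4.17% of all genes) and 3 lower (2.61%) at an unadjusted p under 0.05. The median was 0.02. The 5 were Trhr2 and Cplx1 (higher) and Nxph3, Nxph2 and Pcsk1 (lower). Of the remaining 8 genes, 2 were below the filter and 6 had no probe set with that symbol alone. Among the relatives of Ccn2, Ccn1, another matrix-associated protein, differed by 0.08 (SE 0.078), and the relative of Inpp4b, Inpp4a, by -0.07 (SE 0.036), and neither passed with limma.

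Patterns most like those of the 3 widest-ranging markers were found by Pearson correlation over the 7 arrays, given as a description since all genes share these arrays. Nxph4 was most like Pmf1 (r = 0.992) and Npepl1 (r = 0.989), and 272 genes had r above 0.9 with it. Nr4a2 was most like Chodl (r = 0.979) and Srprb (r = 0.979), with 43 genes above 0.9. Srprb was nearly flat, spanning 0.059 over the 7 arrays where Nr4a2 spanned 0.64. Chodl, a lectin-domain membrane protein gene, had 7.42 on WT 6 but 7.97 and 7.93 on WT 27 and WT 38. Its CKO arrays were at 7.17 to 7.36. Since Chodl was picked for its likeness to Nr4a2 on these arrays, the shared place of WT 6 follows from that choice. For Inpp4b the most like were Pdgfrl (r = 0.938) and Ddr2 (r = 0.926), with 12 above 0.9. None of these 6 genes passed with limma.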

How the data were processed

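The deposited values are log2 signals. The submitters' processing notes name RMA and Affymetrix Expression Console, with no version. The array annotation gave 1 gene symbol for 21786 of 35468 probe sets, several for 1621 and none for 12061. Of the first, 21695 matched the RefSeq gene table (GRCm38.p6) by Entrez identifier. Probe sets with a mean below the 25th percentile (6.84) were left out, and the brightest stood for each symbol, which left 16144 genes. The median log2 signal was 8.23 on every array. Their number limits precision.

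CKO was compared with WT on all 7 arrays with limma 3.58.1 (lmFit, eBayes) in R 4.3.3, without covariates, with Benjamini-Hochberg adjustment at 0.05; SEs and intervals are limma's. The fit was tested on simulated data that held no array lot effect, so that test does not bear on lot. The members and lists were chosen with earlier results of these data known. The text names all 9 markers, Kcnab1, Nr2f1, Neurod6, and from other lists each gene that passed and those of smallest p (4 for the subplate and family lists, 2 for the rest, not all described); others (Sox5, Tbr1, Nr4a1, Nr4a3, Nxph1 and the family members given by value) were picked after their values were seen. Alternatives were renormalization, dim filters, averaged probe sets, variance trend, array weights, array lot and leaving out each array. The olfactory receptor background was added after the data were seen. Figures used matplotlib 3.10.9.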

Additional observations from a re-analysis of the deposited data

How the results depend on the processing

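No marker passed an adjusted p of 0.05 under any alternative run with limma. The smallest adjusted p was 0.245, for Nr4a2 without WT 6, and 1 or 2 of the 9 had an unadjusted p under 0.05. Which genes those were varied: without WT 38 it was Moxd1 alone, and neither Nxph4 nor Nr4a2. Of 140 marker differences recomputed over 16 alternatives, 126 kept their sign and 14 turned it, all among 4 markers near 0 (Cplx3, Inpp4b, Lpar1 and Tmem163). With a single probe set per marker, the dim filters, averaged probe sets and variance trend could not change a difference. The signs kept under those settings were fixed in advance. Leaving out each array gave Cplx3 -0.044 to 0.020, Inpp4b -0.088 to 0.079, Lpar1 -0.032 to 0.121 and Tmem163 -0.023 to 0.070. Array lot as a fixed block gave the same differences as lot 2 alone, since lots 1 and 3 hold 1 group each: Lpar1 was -0.018 and Tmem163 -0.092 in both. With array weights Lpar1 was -0.034. Nxph1 turned to -0.045 with probe sets averaged, -0.021 with array weights and -0.105 in both lot settings, and ranged from -0.039 to 0.059 without each array. Ddr2 was -0.016 with array weights and -0.017 to 0.070 without each array, and Pdgfrl -0.140 to 0.083. The markers' median (0.03) was -0.031 with array weights, -0.027 in both lot settings and -0.032 to 0.063 without each array, the lowest without WT 38. Genes passing over all genes (4) numbered 1 with array weights (742 at an unadjusted p under 0.05), 0 with the fixed block (611), 0 in lot 2 alone (486) and 1 to 6 without each array. The count of 1 in the list of 20, Kcnab1, was 0 with a filter at the 50th percentile, which removes Kcnab1, with array weights, in both lot settings and without any 1 array (0 in all 7). At an unadjusted p under 0.05 that list still had 4 to 6 genes under these settings. The causes were not tested. That filter also removed Cplx3, Moxd1, Inpp4b and Trh. No paired analysis was possible because the groups share no replicate number.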
